A study of Mus musculus with 4 samples.

Results

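Fatty acid oxidation, ketone body metabolism and the peroxisome proliferator-activated receptors (PPARs) were followed as a set of 35 genes, chosen by symbol from the 52459 genes of the count table. All 35 symbols were found. To be tested, a gene had to exceed 5 reads and 1 CPM (counts as a share of the library, on a common scale) in some library, which left 13692 genes, 34 of the 35 among them. Each of these 34 genes was above 1 CPM in all 4 libraries, and the other one, Acaa1b, had at most 1 read in any library. The libraries came from intestinal stem cells (ISCs) of wild-type (WT) C57/Bl6 mice, the stem cells at the base of the crypts that renew the gut epithelium. They were sorted from small intestine by surface markers (the SM6 strategy, which takes EPCAM+ EPHB2high CD44high cells and leaves out CD45+ and CD31+ cells). Of the libraries, 2 were from young mice of 2 months (ISC_2mth) and 2 from old mice of 22 months (ISC_22mth), each made from a pool of 5 animals, and no group carried a transgene or received a treatment. RNA was amplified along its whole length by single primer isothermal amplification (SPIA), and p-values below measure the spread between the pools of each age.

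Long-chain fatty acids are activated to acyl-CoA, handed to carnitine by CPT1 to enter mitochondria, and then shortened in repeated rounds of dehydrogenation, hydration, a further dehydrogenation and thiolysis. The acetyl-CoA released feeds the citric acid cycle or is made into ketone bodies. PPARα, PPARδ and PPARγ are nuclear receptors that bind fatty acids, pair with RXR, and switch on many genes of this pathway. In the crypt, PPARδ signalling, fatty acid oxidation and ketone bodies are known as regulators of ISC number and function.

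The libraries held 11662654 to 15975698 counts each, with 3852178 to 4593004 left once the mitochondrial genome was taken out. Mitochondrially encoded genes took 62.6% and 65.7% of the counts in ISC_2mth and 73.8% and 72.9% in ISC_22mth. Levels below are CPM after TMM normalization, which sets the bulk of the genes equal between libraries, and 3 counts corresponded to between 0.198 and 0.245 CPM. Scaling by total counts instead shifted all genes together, to a median of -0.49 on the log2 scale, so each direction below is relative to the median gene. Defining ISC markers were abundant at both ages. The 15 of them, Lgr5 and Olfm4 included, summed to 4958 and 4625 CPM in ISC_2mth and to 4754 and 5141 CPM in ISC_22mth, and 0 had an FDR under 0.05 by edgeR (3 higher and 5 lower at an unadjusted p under 0.05).

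Old ISCs held higher levels of 3 of the 34 genes tested and lower levels of 0, by edgeR's quasi-likelihood test at a Benjamini-Hochberg FDR under 0.05. The 3 genes that rose were Acot1, which encodes the cytosolic acyl-CoA thioesterase, Acadl, the long-chain acyl-CoA dehydrogenase of mitochondria, and Etfa, the alpha subunit of the flavoprotein that takes up the electrons from such dehydrogenases. Over all genes tested, 1.63% were called higher and 0.628% lower, against 8.82% and 0.0% of the members. The members were chosen with earlier results of these data known. This contrast and those below with all genes are therefore descriptive and no independent support. At an unadjusted p under 0.05, 14 members were higher and 1, Ppard, was lower, where the background over all genes was 9.26% and 7.65%. By other tools the count of lower members was 0 with limma voom and with DESeq2 and 1 with edgeR's likelihood ratio test. The paper's own list of genes changed with age (FDR under 0.05) also holds Hadh, Acaa2 and Acat1 as higher.

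Across the set, 28 of the 34 genes (82.4%) had a log2 fold change above 0, compared with 49.5% of all genes tested, relative to the median gene. With total counts, 6 of the 34 were above 0. Their median on the log2 scale was 0.32, with a range from -0.62 to 1.33, against 0.0 for all genes tested, and with total counts it was -0.18, again 0.32 above the median of all genes. For 22 members the old pools were both above the young pools, and for 3 both were below them (Ppard, Ppara and Acadvl). These outcomes were found for 24.0% and 23.6% of all genes tested. Fewer cells of a type and less RNA per cell cannot be told apart in such bulk libraries.

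Markers of absorptive enterocytes, the differentiated cells of the villus that absorb fat, moved with the set. All 20 were tested, 18 had a log2 fold change above 0 (median 0.51), and 6 passed the test, Apob, Sis, Mep1b, Enpep and Mgam among them. Of all genes tested, 49.5% were above 0 and 1.63% were called higher. Their summed level was 1050 and 1101 CPM in ISC_2mth and 1592 and 1472 CPM in ISC_22mth, none of the 20 was at 0 in all libraries, and their part in the results below was not tested. Paneth cell markers were above 0 in 9 of 9, with 3 called (Defa17, Defa24 and Defa30), and their sum was 1059, 836, 2413 and 963 CPM, so that only ISC_22mth replicate 1 stood apart. The values of the called members without that pool are given beside them.

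**Figure D1:**
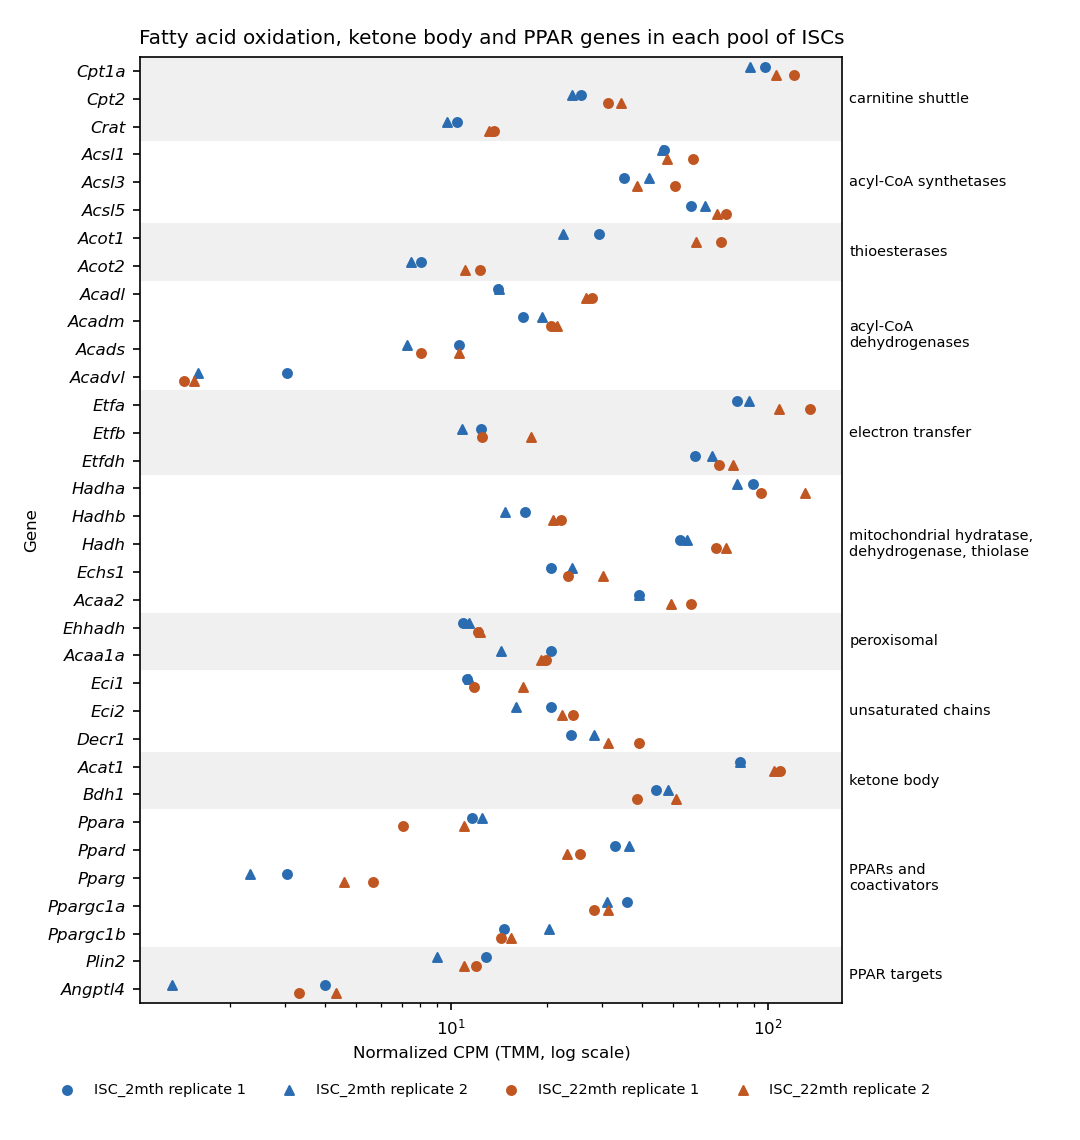
Normalized CPM (log axis) of each of the 34 genes tested in each pool, grouped by role; blue marks ISC_2mth, orange ISC_22mth, circles replicate 1 and triangles replicate 2. Both orange symbols lie to the right of both blue ones for 22 genes and to the left for Ppard, Ppara and Acadvl.

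Acot1 hydrolyses long-chain acyl-CoA back to free fatty acid and CoA in the cytosol and is a classical PPARα target. It lies at chr12:84009490-84018371 on the plus strand (GRCm38). Its level was 29.2 and 22.6 CPM in ISC_2mth and 70.8 and 59.1 CPM in ISC_22mth, from between 342 and 937 reads. Both old pools were well above both young pools. The mean rose from 25.9 ± 4.65 to 65.0 ± 8.25 CPM (SD, n = 2 pools each), a log2 fold change of 1.33 ± 0.15 (SE; 2.51-fold; edgeR FDR = 3.3e-05). Acot1 was called in 15 of 15 alternative analyses, with log2 fold changes between 0.83 and 1.52, and without ISC_22mth replicate 1 the value was 1.19.

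Acot2, the mitochondrial paralogue next to Acot1 at chr12:83987861-83993873, shares sequence with it. Of the 50-nt stretches in Acot1 transcripts, 19.2% occurred without mismatch in another gene, most often Acot2, and 27.7% of those in Acot2 did so, most often in Acot1. The split of reads between the neighbours is therefore uncertain. Acot2 was at 8.06 and 7.48 CPM in ISC_2mth and 12.3 and 11.1 CPM in ISC_22mth (log2 fold change 0.59 ± 0.21 SE, edgeR FDR = 0.15), without overlap between ages but short of the threshold. The sum of Acot1 and Acot2, which the split cannot alter, was 37.3 and 30.1 CPM in young and 83.1 and 70.2 CPM in old ISCs.

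Acadl opens the oxidation of long and branched acyl-CoA chains and lies at chr1:66830839-66863277 on the minus strand. It was at 14.1 and 14.2 CPM in ISC_2mth and at 27.9 and 26.6 CPM in ISC_22mth. The pools of each age lay close to each other, and the ages were far apart. The means were 14.1 ± 0.0742 and 27.2 ± 0.921 CPM (SD, n = 2 pools each), a log2 fold change of 0.95 ± 0.16 (SE; 1.93-fold; edgeR FDR = 0.0038). No 50-nt stretch of Acadl was shared with another gene, and 14 of 15 alternatives called it. The exception was scaling by total counts (log2 fold change 0.46, FDR = 0.055), and leaving out ISC_22mth replicate 1 gave 0.91.

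Etfa lies at chr9:55454508-55512243 on the minus strand. It was at 80.0 and 87.3 CPM in young ISCs and at 136 and 108 CPM in old ISCs. The old pools were above the young ones and differed more from each other. The means were 83.6 ± 5.15 and 122 ± 20.3 CPM (SD, n = 2 pools each), a log2 fold change of 0.55 ± 0.13 (SE; 1.46-fold; edgeR FDR = 0.032). This call was the least stable of the 3. It was lost without ISC_22mth replicate 1 (0.37, FDR = 0.097), without ISC_2mth replicate 1 (0.49, FDR = 0.23), with GC content and length offsets (0.39, FDR = 0.18) and with total counts (0.06, FDR = 0.77).

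**Figure D2:**
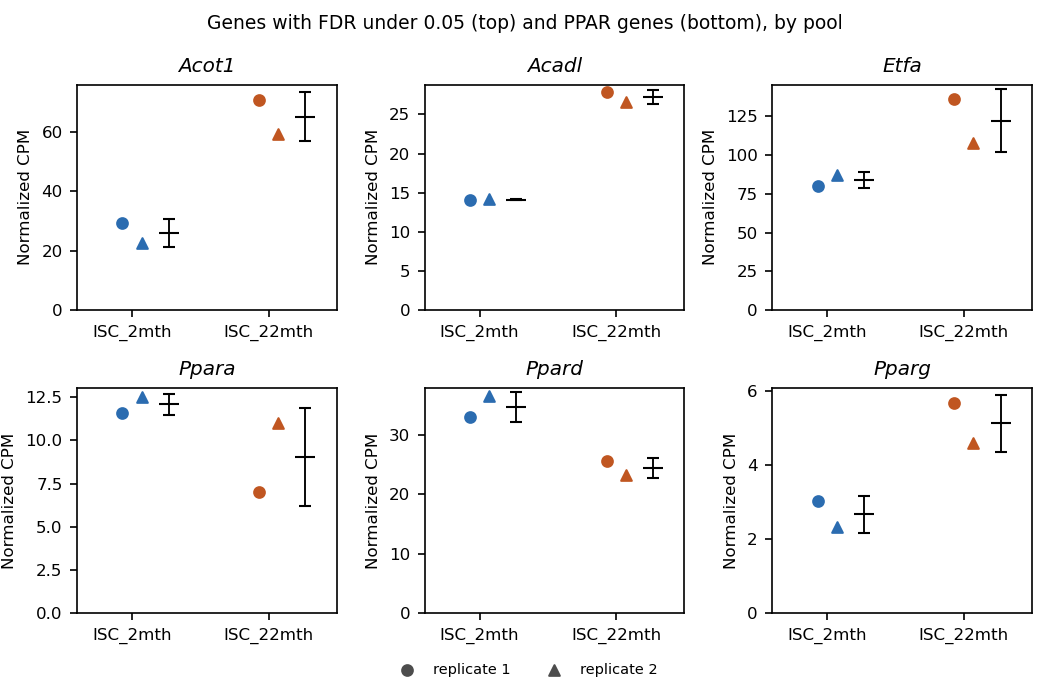
Normalized CPM by pool of the 3 genes with an FDR under 0.05 (top row) and of the 3 PPAR genes (bottom row); circles are replicate 1, triangles replicate 2, and the bar beside them is the mean ± SD of the 2 pools. Acot1, Acadl and Etfa were higher in both old pools, while Ppara and Ppard were lower and Pparg higher in both old pools without passing the test.

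The promoters of the 3 called genes are shown because PPAR and RXR bind together to a direct repeat, 2 copies of AGGTCA with 1 base between them. The 250 bases before each start site were taken from RefSeq (GRCm38.p6) and searched on both strands for that repeat with at most 2 mismatches over its 12 letters. They are given 5′ to 3′ on the strand of the gene, with a match in capitals, for Acadl (chr1:66863310-66863559, minus), Etfa (chr9:55512244-55512493, minus) and Acot1 (chr12:84009252-84009501, plus).
Acadl: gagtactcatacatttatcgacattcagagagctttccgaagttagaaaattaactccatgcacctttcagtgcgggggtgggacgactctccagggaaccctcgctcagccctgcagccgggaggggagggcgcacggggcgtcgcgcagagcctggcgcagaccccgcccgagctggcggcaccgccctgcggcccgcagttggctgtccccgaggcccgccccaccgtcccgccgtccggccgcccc
Etfa: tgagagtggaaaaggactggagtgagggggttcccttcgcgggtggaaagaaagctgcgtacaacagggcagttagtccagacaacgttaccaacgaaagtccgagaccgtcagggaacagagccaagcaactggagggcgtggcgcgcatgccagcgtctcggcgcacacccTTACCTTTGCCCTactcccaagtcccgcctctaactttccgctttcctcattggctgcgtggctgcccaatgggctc
Acot1: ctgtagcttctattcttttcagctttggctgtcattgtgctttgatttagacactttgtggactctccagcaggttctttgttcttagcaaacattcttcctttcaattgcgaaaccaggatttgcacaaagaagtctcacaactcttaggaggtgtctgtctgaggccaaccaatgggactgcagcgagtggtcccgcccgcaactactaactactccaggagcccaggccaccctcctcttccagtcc
The Etfa window held 1 match, 64 bases before the start, which reads AGGGCAAAGGTAA on the opposite strand with 2 mismatches. The windows of Acadl and Acot1 held no match. RefSeq windows were at hand for 29 members (33 windows), of which 3 windows held a match, those of Etfa, Echs1 and Plin2 (9.09%), and 1063 of all 32851 windows did so (3.24%). The half-site AGGTCA alone was in 7 of the 33 windows and in 14.0% of all windows. A match describes letters only.

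The carnitine shuttle carries activated fatty acids into mitochondria, and 3 of its 3 members had higher levels in either old pool than in either young pool, though with total counts their log2 fold changes were between -0.07 and -0.20. None passed the FDR threshold, and 3 had an unadjusted p under 0.05. Of all genes tested, 24.0% had both old pools above both young pools, and 9.26% were higher at such a p. Cpt1a, the rate-limiting enzyme at the outer membrane, was at 97.8 and 87.5 CPM in ISC_2mth and 121 and 106 CPM in ISC_22mth (log2 fold change 0.29 ± 0.12 SE, edgeR FDR = 0.23). Cpt2, which reforms acyl-CoA inside, was at 25.6 and 24.0 CPM in young and 31.3 and 34.4 CPM in old pools (0.41 ± 0.15, FDR = 0.16). Crat, the acetyltransferase for short chains, was at 10.4 and 9.73 CPM against 13.7 and 13.2 CPM (0.42 ± 0.19, FDR = 0.28). Together the shuttle summed to 134 and 121 CPM in young and 166 and 154 CPM in old ISCs. The long-chain acyl-CoA synthetases Acsl1, Acsl3 and Acsl5, which charge fatty acids with CoA before the shuttle, had log2 fold changes between 0.18 and 0.25 with FDR between 0.32 and 0.53, and between -0.24 and -0.31 with total counts. Acsl3 overlapped between ages, and without ISC_22mth replicate 1 its value was -0.01 and that of Acsl1 was 0.04.

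The acyl-CoA dehydrogenases differed among themselves. Against 0.95 for Acadl, the medium-chain enzyme Acadm had a log2 fold change of 0.22 ± 0.16 (SE; edgeR FDR = 0.52; 0.14 without ISC_2mth replicate 1) and the short-chain enzyme Acads one of 0.06 ± 0.24 (FDR = 0.93), whose pools overlapped. The very long-chain enzyme Acadvl was at 3.03 and 1.59 CPM in young and 1.44 and 1.55 CPM in old pools (-0.62 ± 0.49, FDR = 0.56), and the value was -0.09 without ISC_2mth replicate 1. Its old pools were below the young ones by a margin far smaller than the gap between the young pools. Acadvl shares 1151 exonic bases with Dvl2 on the opposite strand, and where counting ignores strand the reads of such a pair cannot be told apart.

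The electrons of these dehydrogenases pass through ETF, of subunits Etfa and Etfb, to the ubiquinone oxidoreductase Etfdh. Etfb was at 12.4 and 10.8 CPM in ISC_2mth and 12.5 and 17.9 CPM in ISC_22mth (log2 fold change 0.38 ± 0.21 SE, edgeR FDR = 0.36). Its lower old pool lay next to the higher young pool, the value was 0.10 without ISC_22mth replicate 2 (FDR = 0.88), and 44.8% of its 50-nt stretches were shared, most with the overlapping gene Gm45233. Etfdh was at 58.8 and 66.7 CPM against 69.9 and 77.3 CPM (0.23 ± 0.13, FDR = 0.38; 0.14 without ISC_2mth replicate 1). With total counts the values of Etfb and Etfdh were -0.11 and -0.26. Summed, the 3 genes were at 151 and 165 CPM in young and 219 and 203 CPM in old ISCs.

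The hydratase, hydroxyacyl dehydrogenase and thiolase steps of the mitochondrial spiral had log2 fold changes from 0.25 to 0.45 in 5 of 5 genes relative to the median gene, and from -0.23 to -0.05 with total counts. None of the 5 passed the FDR threshold, and 4 had an unadjusted p under 0.05, where 9.26% of all genes tested were higher at such a p. Hadha, the alpha subunit of the trifunctional protein, was at 89.9 and 79.7 CPM in young and 94.9 and 131 CPM in old pools (0.41 ± 0.14 SE, edgeR FDR = 0.14). Here ISC_22mth replicate 2 alone was high, and the fold change moved from 0.16 without it to 0.63 without ISC_22mth replicate 1. Hadhb, the beta subunit, was at 17.1 and 14.8 CPM against 22.2 and 21.0 CPM (0.44 ± 0.17, FDR = 0.18), with 19.7% of its stretches shared.

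Hadh, the dehydrogenase for shorter chains, was at 52.8 and 55.4 CPM in ISC_2mth and 68.4 and 73.5 CPM in ISC_22mth (log2 fold change 0.39 ± 0.13 SE, edgeR FDR = 0.11). Acaa2, the mitochondrial thiolase, was at 39.1 CPM in both young pools and at 57.3 and 49.3 CPM in the old ones (0.45 ± 0.13, FDR = 0.091). In both genes the young pools were near each other and below the old pools. When pools were left out in turn, Hadh ran from 0.34 to 0.44 and Acaa2 from 0.34 to 0.55. Echs1, the enoyl-CoA hydratase, had a log2 fold change of 0.25 with overlapping pools (FDR = 0.46), and of 0.06 without ISC_22mth replicate 2.

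Unsaturated fatty acids need the isomerases Eci1 and Eci2 and the reductase Decr1. Decr1 was at 23.9 and 28.2 CPM in young and 39.2 and 31.3 CPM in old pools (log2 fold change 0.44 ± 0.16 SE, edgeR FDR = 0.16). Its value was 0.59 without ISC_22mth replicate 2 and 0.26 without ISC_22mth replicate 1. Eci1 and Eci2 had values of 0.34 and 0.35 (FDR = 0.43 and 0.31). With total counts the 3 genes were at -0.15 to -0.05. All 3 genes were higher in either old pool than in either young pool, an order found for 24.0% of all genes tested. For Eci1 the size rested on ISC_22mth replicate 2, as the other old pool was at 11.8 CPM beside 11.2 and 11.4 CPM in the young pools, and without replicate 2 the value was 0.06. Eci2 was at 0.17 without ISC_2mth replicate 2. The peroxisomal members were closer to the median gene. Ehhadh, the bifunctional enzyme of peroxisomes, was at 0.13 (FDR = 0.78), and Acaa1a, a peroxisomal thiolase, was at 20.7 and 14.4 CPM in young and 19.9 and 19.2 CPM in old pools (0.16 ± 0.18, FDR = 0.71), with overlap. Its near copy Acaa1b had 0, 1, 1 and 1 reads, and since 17.1% of the stretches of Acaa1a are shared, most with Acaa1b, the split between them is uncertain.

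**Figure D3:**
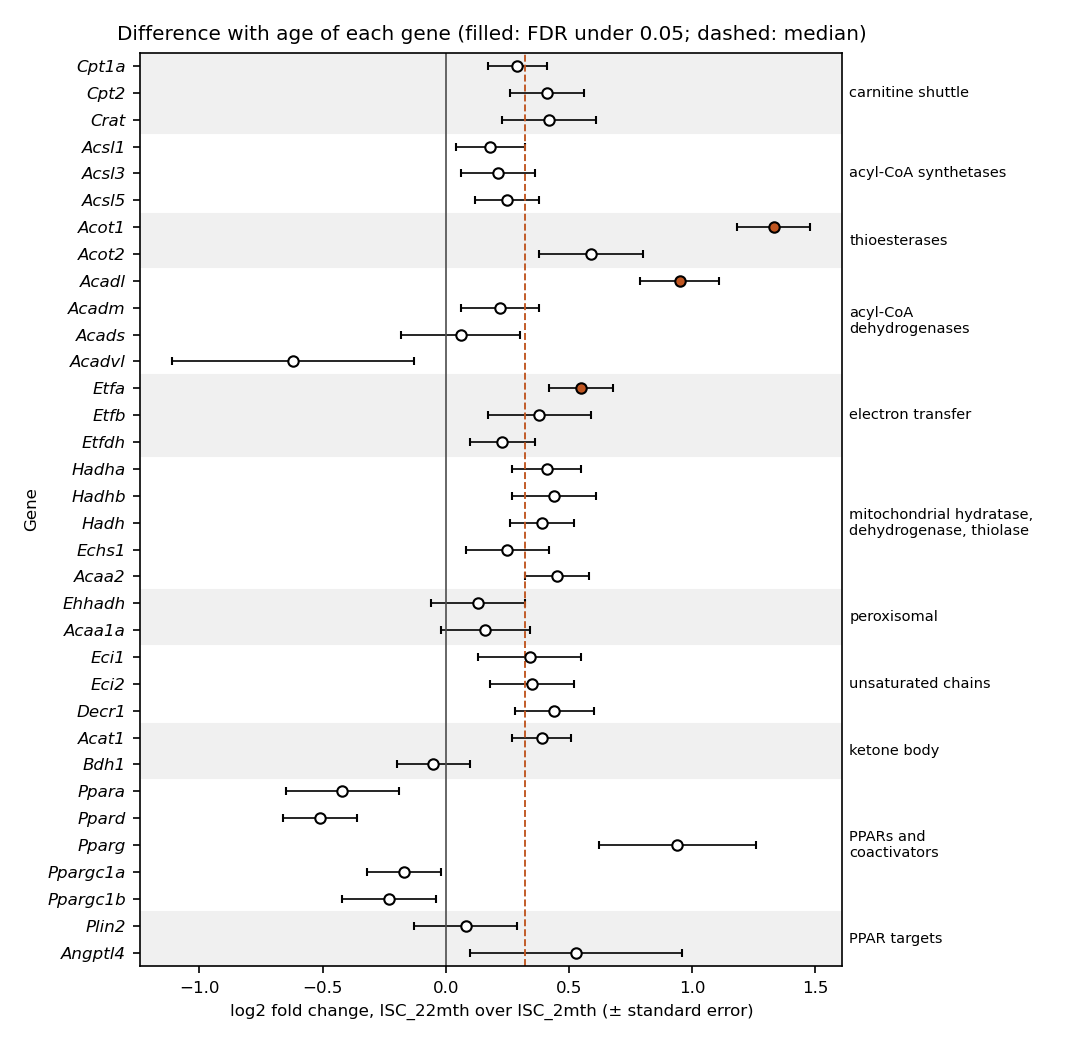
log2 fold change of ISC_22mth over ISC_2mth for each of the 34 genes tested, with bars of ± 1 standard error, relative to the median gene (TMM); orange points have an FDR under 0.05 and the dashed line is the members' median, 0.32. Enzymes lie mostly right of 0, whereas Ppara, Ppard and both coactivators lie left of it; with total counts 6 of the 34 genes lie right of 0.

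Of the ketone body enzymes in the set, Acat1, which joins acetyl-CoA to acetoacetyl-CoA and splits it again, was at 81.5 and 81.6 CPM in ISC_2mth and 109 and 104 CPM in ISC_22mth (log2 fold change 0.39 ± 0.12 SE, edgeR FDR = 0.099). The gap between ages was several times the gap between pools, and the value ran from 0.35 to 0.42 when pools were left out in turn. Bdh1, the hydroxybutyrate dehydrogenase, was at 44.2 and 48.2 CPM against 38.5 and 51.1 CPM (-0.05 ± 0.15, FDR = 0.91), with the young pools inside the range of the old ones. Outside the set, Oxct1, which activates ketone bodies for use, was at 49.0 and 64.4 CPM in young and 54.5 and 51.9 CPM in old pools (-0.09 ± 0.14, FDR = 0.80), with overlap.

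Of the 5 receptors and coactivators, 4 had log2 fold changes below 0, and 0 passed the FDR threshold (1 higher and 1 lower at an unadjusted p under 0.05). With total counts, where the median of all genes was -0.49, the threshold was passed by Ppara (-0.91, FDR = 0.0048), Ppard (-0.99, FDR = 9.8e-05), Ppargc1a (-0.67, FDR = 0.0039) and Ppargc1b (-0.71, FDR = 0.0077), and Pparg was at 0.44. Ppard, the receptor best known from the crypt, lies at chr17:28232700-28301474 and was at 32.9 and 36.4 CPM in ISC_2mth and at 25.5 and 23.2 CPM in ISC_22mth. Both old pools were below both young pools (log2 fold change -0.51 ± 0.15 SE, 0.704-fold, edgeR FDR = 0.079). The threshold was passed in 4 of 15 alternatives, among them the likelihood ratio test (FDR = 0.042). Without ISC_22mth replicate 1 the value was -0.58, and without replicate 2 of that age it was -0.44. With GC content and length offsets the value was -0.29 (FDR = 0.39). Ppara, at chr15:85734983-85802819, was at 11.6 and 12.5 CPM in young and at 7.03 and 11.0 CPM in old pools (-0.42 ± 0.23, FDR = 0.36). Most of this came from ISC_22mth replicate 1, and without it the value was -0.13 (FDR = 0.85).

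Pparg, the receptor best known from fat cells and also expressed in gut epithelium, lies at chr6:115360951-115490399 and went the other way. It was at 3.03 and 2.32 CPM in ISC_2mth and at 5.67 and 4.58 CPM in ISC_22mth, from between 35 and 75 reads. The ages did not overlap (log2 fold change 0.94 ± 0.32 SE, 1.92-fold, edgeR FDR = 0.14), and 0 of 15 alternatives reached the threshold. Adipocyte markers summed to at most 0.245 CPM, with Adipoq and Lep at 0 in all libraries. The coactivator Ppargc1a was at 36.0 and 31.1 CPM against 28.3 and 31.2 CPM (-0.17 ± 0.15, FDR = 0.59), and Ppargc1b at 14.7 and 20.3 CPM against 14.4 and 15.5 CPM (-0.23 ± 0.19, FDR = 0.57). Pools of both coactivators overlapped between ages. Without ISC_2mth replicate 2 Ppargc1b stood at 0.01 and Ppargc1a at -0.28, and without ISC_2mth replicate 1 Ppargc1a stood at -0.06.

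Among the PPAR targets in the set, Plin2, which coats lipid droplets, was at 0.08 (FDR = 0.90) and Angptl4, a secreted lipase inhibitor, at 0.53 ± 0.43 (SE; edgeR FDR = 0.57) on the log2 scale, and both overlapped between ages. Angptl4 had as few as 20 reads in 1 young pool, and its fold change ran from -0.07 to 1.53 when pools were left out in turn.

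Levels of different genes were compared per kilobase of exon, with all annotated exons of a gene joined. That length can exceed the length of the transcripts present, so the order of genes is approximate. Etfa was the most abundant member in both ages, with a mean of 45.6 CPM per kb in ISC_2mth and 66.5 in ISC_22mth, followed by Acaa2 (25.8 and 35.2) and Acat1 (21.7 and 28.4). Acot1 stood 15th among the members in young ISCs at 6.61 CPM per kb and 4th in old ISCs at 16.6, and Acadl moved from 13th (7.04) to 9th (13.6). Ppard moved from 19th (4.61) to 28th (3.24). Of the members tested, Pparg, Acadvl and Angptl4 were the lowest in both ages, at or under 1.73 CPM per kb.

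In the same way, 9 lists of other genes around the same pathway were examined, with 150 genes in all, of which 149 were in the table and 121 were tested. Of these, 76 had a log2 fold change above 0 (median 0.13, relative to the median gene), 7 rose and 1 fell at an FDR under 0.05 by edgeR. The shares over all genes tested were 49.5% above 0, 1.63% called higher and 0.628% called lower. The list of fatty acid activation, transport and thioesterases had 14 of 21 genes above 0 (median 0.12), and 2 rose. Fabp1, the fatty acid binding protein of liver and enterocytes, was at 18.1 and 16.6 CPM in ISC_2mth and 117 and 59.7 CPM in ISC_22mth. ISC_22mth replicate 1 stood far above the other old pool, and both were above the young pools (2.35 ± 0.22 SE, 5.08-fold, FDR = 2.4e-06), and 15 of 15 alternatives called it. Fabp2, the intestinal form, was at 161 and 264 CPM against 406 and 401 CPM (0.93 ± 0.16, FDR = 0.004). The young pools were far apart, and the value was 0.62 without ISC_2mth replicate 1 and 1.32 without ISC_2mth replicate 2. DESeq2 did not call it (0.92, FDR = 0.22). Both are products of enterocytes, whose markers were higher as given above, and the part of such cells was not tested.

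Peroxisomal oxidation outside the set had 15 of 16 genes above 0 (median 0.23), and 2 rose. Cat, the catalase that removes the hydrogen peroxide made there, was at 176 and 178 CPM in young and 266 and 285 CPM in old pools (log2 fold change 0.63 ± 0.11 SE, edgeR FDR = 0.0045), and was not called with total counts (0.14, FDR = 0.40). Phyh, which prepares the branched phytanic acid for oxidation, was at 30.9 and 37.2 CPM against 55.3 and 50.3 CPM (0.63 ± 0.14, FDR = 0.022), a call lost without ISC_2mth replicate 1 (0.51, FDR = 0.27), with GC content and length offsets (0.45, FDR = 0.12) and with total counts (0.15, FDR = 0.46). Of 5 carnitine genes tested, 4 were above 0 (median 0.53) and Aldh9a1, an enzyme of carnitine synthesis, rose from 49.0 and 55.2 CPM to 73.3 and 77.3 CPM (0.53 ± 0.13, FDR = 0.031). Without ISC_2mth replicate 1 or 2 the value was of like size but short of the threshold (0.45, FDR = 0.34, and 0.61, FDR = 0.051), and with total counts it was 0.04 (FDR = 0.83). Other mitochondrial acyl-CoA enzymes, many of them of branched-chain amino acid breakdown, had 15 of 18 above 0 (median 0.15) and 0 called (3 higher at an unadjusted p under 0.05).

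Among other PPAR target genes, 14 of 17 tested were above 0 with a median of 0.64, and 3 rose, among them Fabp1 and Cyp4a32, a fatty acid hydroxylase of a family with near copies. Cyp4a32 had 16 and 15 reads in young and 61 and 42 reads in old pools (log2 fold change 1.93 ± 0.42 SE, edgeR FDR = 0.021), and without either young pool or without ISC_22mth replicate 1 the value stayed between 1.71 and 2.01 with an FDR between 0.055 and 0.072. At 0 in all libraries were 5 targets, Fgf21, Plin1, Cidea, Cyp4a14 and Cyp4a31. The partners and co-regulators of nuclear receptors had 8 of 21 above 0 (median -0.10), with 0 called higher and 1 lower.

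Fatty acid synthesis had 5 of 13 genes above 0 (median -0.12) and lipid droplet breakdown and storage 3 of 9 (median -0.12), with 0 called in either list (2 higher and 2 lower, and 0 higher and 2 lower, at an unadjusted p under 0.05). Ketone body genes had 3 of 6 above 0 (median 0.03), with 1 called higher and 0 lower. Medians of the 9 lists ranged from -0.12 to 0.64 where that of all genes was 0.0, and from -0.61 to 0.16 with total counts, where that of all genes was -0.49. Differences between lists were not tested. Markers of goblet cells had 6 of 8 above 0 with 0 called (0 at an unadjusted p under 0.05) and sums between 1945 and 2655 CPM. Enteroendocrine markers summed to between 43.0 and 159 CPM with 1 called, and tuft cell markers to between 3.03 and 8.39 CPM with 1 called and Il25 and Gnat3 at 0. Leukocyte markers summed to at most 4.96 CPM and stromal and endothelial markers to at most 2.20 CPM, with Cd3g, Cd79a, Itgax, Col3a1, Pdgfra, Cdh5 and Des at 0.

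**Figure D4:**
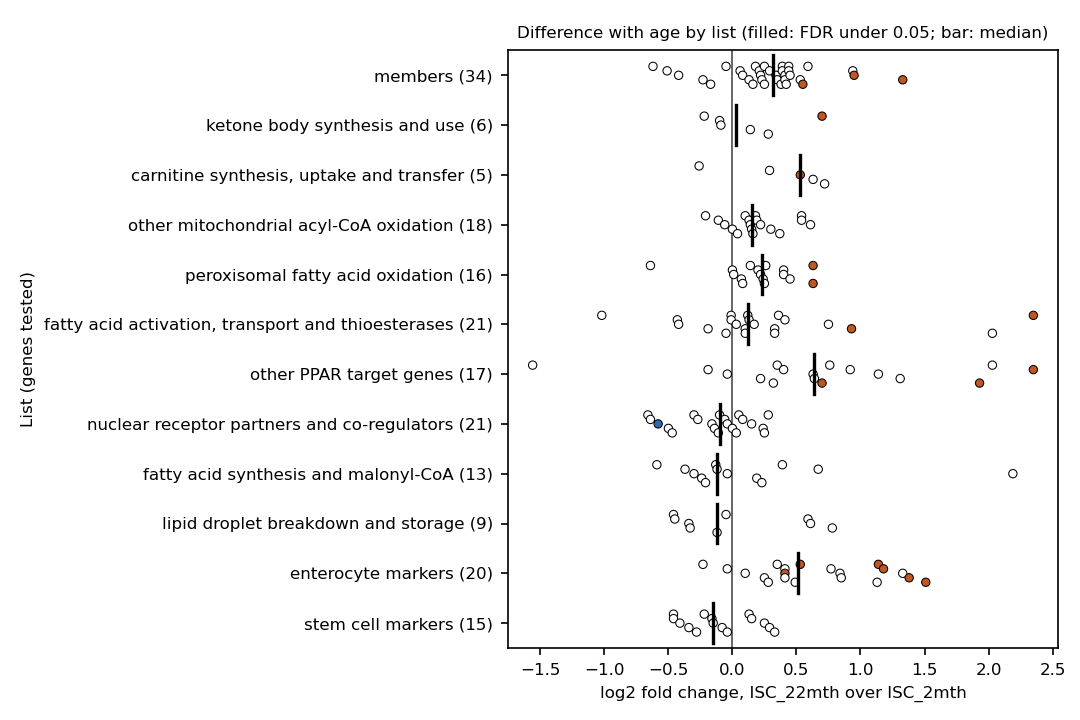
log2 fold change of ISC_22mth over ISC_2mth for each gene tested in the set, in 9 further pathway lists and in the enterocyte and stem cell markers, relative to the median gene (TMM); filled points have an FDR under 0.05 (orange higher, blue lower) and bars are medians. Medians were 0.32 for the set, 0.64 for other PPAR targets, 0.51 for enterocyte markers and -0.15 for stem cell markers; with total counts the median of all genes lies at -0.49.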

How the data were processed

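The 4 libraries were 2 pools of young and 2 of old ISCs, with groups taken from the ages in the sample titles. The authors trimmed single-end reads with Trimmomatic 0.30 (longer reads cropped to 50 nt), aligned them to GRCm38 with STAR 2.4.2a, and deposited raw read counts over the exons of GENCODE vM15 genes from featureCounts; the strand setting and the treatment of reads aligning to several places are not given in the sources used here. No column lacked a sample.

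The paper's filter was used, above 5 reads and above 1 CPM in some library. Ages were compared on these counts with edgeR 4.0.16 (R 4.3.3; TMM, glmQLFit, glmQLFTest, no covariate, two-sided, Benjamini-Hochberg adjustment over all 13692 genes, FDR 0.05). An exact permutation test of 2 against 2 pools cannot give a p below 0.333 and was not run. Replicate pools differed by more than sampling noise (chi-square per gene 9.42 and 7.11). Alternatives were limma voom 3.58.1 with sample quality weights and edgeR's likelihood ratio test (both named in the paper's methods), DESeq2 1.42.0, other scalings and filters, GC content and length offsets, the replicate block, and each pool left out, where the age with 1 pool is assumed to vary like the other. The fits were tested on simulated data.

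Members, pathway lists and marker lists were chosen with earlier results of these data known. Values per library are given for members with an FDR or an unadjusted p under 0.05, for the PPARs, their coactivators, Cpt1a and near-identical pairs, and for the called genes of each further list (at most 5), with Oxct1 in any case; some genes that this rule names are not reported here, and other values were named after they were seen. Positions, lengths and shared 50-nt stretches came from GENCODE vM21 on GRCm38, matched by symbol, as vM15 was not used here. Reads carry no molecular identifiers, so read numbers are not independent molecules.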

Additional observations from a re-analysis of the deposited data

How the results depend on the processing

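Of 15 alternative analyses, 13 gave a count of members called higher within 1.5 times of 3, and 13 gave a median of the members within the spread between pools. The causes of the changes below were not tested. With total counts, 1 member was called higher and 5 lower (Bdh1, Ppara, Ppard, Ppargc1a and Ppargc1b), 4632 genes were called, 3 further pathway genes were higher and 36 lower, and the members' median was -0.18. The log2 fold change then turned to -0.20 for Cpt1a, -0.09 for Cpt2, -0.07 for Crat, -0.26 for Acadm, -0.44 for Acads, -0.08 for Hadha, -0.05 for Hadhb, -0.10 for Hadh, -0.34 for Acaa1a, -0.05 for Acaa2, -0.36 for Ehhadh, -0.10 for Acat1, -0.11 for Etfb, -0.26 for Etfdh, -0.15 for Eci1, -0.15 for Eci2, -0.23 for Echs1, -0.05 for Decr1, -0.31 for Acsl1, -0.28 for Acsl3, -0.24 for Acsl5 and -0.42 for Plin2. The likelihood ratio test called 611 genes, with 1 member and 3 further pathway genes lower. DESeq2 called 197 genes and GC content and length offsets 182, each with 0 further pathway genes lower. These offsets also moved members that were not called, to 0.20 for Acads, 0.34 for Acaa1a, 0.03 for Ehhadh, -0.01 for Bdh1, -0.08 for Ppargc1b and 0.08 for Acsl3. Without a filter 554 genes were called, with 11 further pathway genes higher and 3 lower.

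The replicate numbers shared by the ages belong to different animals, and the differences between replicates 1 and 2 did not go together between ages (correlation across genes -0.00015), so the numbers were not taken as pairs. With the replicate block, 624 genes were called, with 1 member (Ppard) lower and 13 further pathway genes higher and 4 lower.

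Leaving out each pool in turn gave between 2 and 6 members called higher, 0 to 1 called lower, 147 to 687 genes called, 5 to 13 further pathway genes higher and 0 to 3 lower, and a median of the members between 0.29 and 0.36. The lowest count of genes, 147, was without ISC_2mth replicate 1 and the highest, 687, without ISC_22mth replicate 2, which also gave the 6 members. Log2 fold changes crossed 0 for Acads (-0.20 to 0.36), Acaa1a (-0.08 to 0.44), Bdh1 (-0.26 to 0.15), Ppargc1b (-0.44 to 0.01), Acsl3 (-0.01 to 0.39), Plin2 (-0.17 to 0.36), Angptl4 (-0.07 to 1.53) and Oxct1 (-0.27 to 0.11), none of them called. The value kept its sign but moved by over 1.5 times for Acadm (0.14 to 0.31), Acadvl (-1.02 to -0.09), Hadha (0.16 to 0.63), Echs1 (0.06 to 0.43), Etfb (0.10 to 0.62), Etfdh (0.14 to 0.32), Eci1 (0.06 to 0.58), Eci2 (0.17 to 0.54), Decr1 (0.26 to 0.59), Ppara (-0.78 to -0.13), Ppargc1a (-0.28 to -0.06), Acsl1 (0.04 to 0.31) and Fabp2 (0.62 to 1.32). Members of few reads such as Acadvl, Angptl4 and Pparg carry the widest errors (SE 0.49, 0.43 and 0.32 on the log2 scale).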
